A study of Homo sapiens with 16 samples.

Results

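The results here concern 31 genes that make cholesterol and fatty acids or that control this synthesis through the sterol regulatory element-binding proteins (SREBPs). They were chosen by name, and all 31 gene symbols matched 1 row each among the 58735 genes of the deposited table. By role they comprise 5 SREBP pathway regulators, 18 enzymes of cholesterol synthesis, the sterol transfer protein STARD4 and 7 enzymes of fatty acid synthesis and desaturation. The cells were U2OS, an established human osteosarcoma line, which had received either a control siRNA without a target (siNT) or one directed at SETD2 (siSETD2). SETD2 is the methyltransferase that places trimethylation on lysine 36 of histone H3. RNA-seq libraries were made from cells that, 48 h after transfection, were left untreated, given hydroxyurea (HU, 2 mM), given VE-822 (2 µM) or given HU with VE-822, with drugs present for 4 h. HU lowers the supply of deoxynucleotides and stalls DNA replication, and VE-822 inhibits ATR, a kinase of the replication checkpoint. Each of the 8 groups of siRNA and treatment held 2 libraries, numbered R1 and R2, for 16 libraries in all. Every library thus carries an siRNA transfection, and no untransfected cells are among them. Nothing in the labels ties R1 and R2 to separate cultures, so p-values reflect no more than the scatter among these libraries, and that scatter could be technical.

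SREBPs are made as membrane proteins of the endoplasmic reticulum. SCAP, a sterol sensor, escorts them to the Golgi when sterols are low, where proteases release the part that enters the nucleus and activates genes of lipid synthesis. INSIG1 and INSIG2 hold SCAP in the endoplasmic reticulum when sterols are plentiful. SREBF1 encodes the forms known mainly for fatty acid genes, SREBF2 encodes the form known mainly for cholesterol genes, and INSIG1 and both SREBF genes are themselves known targets of the pathway. Proliferating cells in culture use this synthesis for new membrane.

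Promoter sequence from RefSeq (GRCh38.p14) was matched for 27 of the 31 genes, and the 250 bases before each start were searched on both strands. The following stretches belong to 3 regulators and 1 enzyme whose values are given library by library further on, and they end where the first annotated coding-gene exon begins. Matches are in capitals, and each line reads along the gene's own strand, 5′ to 3′. An SRE-type motif is TCACNCCAC, an E-box type motif is TCACNTGA, a CCAAT box reads CCAAT or, on the other strand, ATTGG, and a GC box reads GGGCGG or CCGCCC. SREBF2 is shown at chr22:41832855-41833078 (plus strand), INSIG1 at chr7:155297628-155297775 (plus), SREBF1 at chr17:17837003-17837236 (minus) and HMGCS1 at chr5:43313513-43313662 (minus).
SREBF2: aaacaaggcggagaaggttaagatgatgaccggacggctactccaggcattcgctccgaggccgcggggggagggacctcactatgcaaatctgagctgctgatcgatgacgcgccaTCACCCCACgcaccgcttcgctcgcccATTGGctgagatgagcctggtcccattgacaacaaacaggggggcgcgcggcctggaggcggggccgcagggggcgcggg
INSIG1: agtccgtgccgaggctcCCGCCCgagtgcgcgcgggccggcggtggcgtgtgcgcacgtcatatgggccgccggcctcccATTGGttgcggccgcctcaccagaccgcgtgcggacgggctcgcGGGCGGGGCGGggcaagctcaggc
SREBF1: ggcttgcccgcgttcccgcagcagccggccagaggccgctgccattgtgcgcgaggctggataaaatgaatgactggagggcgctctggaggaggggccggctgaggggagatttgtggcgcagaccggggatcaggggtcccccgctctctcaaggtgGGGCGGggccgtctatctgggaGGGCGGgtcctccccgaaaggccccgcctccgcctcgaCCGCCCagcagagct
HMGCS1: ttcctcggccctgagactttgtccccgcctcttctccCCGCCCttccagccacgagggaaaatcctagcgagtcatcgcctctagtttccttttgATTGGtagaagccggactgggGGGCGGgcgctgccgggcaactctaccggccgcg
The SREBF2 stretch held the only SRE-type match among the 27 promoters (3.70%), against 0.875% of 27305 promoters and 0.943% of the 8805 promoters of genes tested here. It lay 133 to 125 bases before the start. The last pair of GC boxes in the INSIG1 stretch shares 1 base.

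E-box type matches were present in INSIG1 and EBP, which is 7.41% of the 27 promoters against 3.30% of all and 3.59% of tested genes. They are shown with 8 flanking bases on each side, since these matches lie outside the stretches above. They lie at chr7:155297814-155297837 for INSIG1 and chrX:48521673-48521696 for EBP, 56 to 49 and 127 to 120 bases before the RefSeq start.
INSIG1: gggcaggcTCACGTGAtgcgggcc
EBP: aacctaacTCAGGTGAaaatggcg
The INSIG1 letters read the same on both strands, and the EBP match is on the strand opposite to the gene. CCAAT boxes were present in 17 of the 27 promoters (63.0%, against 33.0% of all and 34.9% of tested genes). GC boxes were present in 25 of the 27 (92.6%, against 42.3% and 68.6%), NSDHL and FADS2 being the exceptions. A match describes letters only, and binding was not measured here.

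The libraries held between 22310806 and 31101932 recovered fragments. SETD2 transcript lay at 2.01 to 4.62 FPKM (fragment counts scaled to exon length and library size) in the 8 siSETD2 libraries and at 7.34 to 9.25 FPKM in the 8 siNT libraries, without overlap. The osteosarcoma markers SPARC and VIM were high, with means of 165 and 118 FPKM, and RUNX2 was present at 2.55 FPKM, while ALPL (0.135 FPKM) and COL1A2 (0.0108 FPKM) were near 0 and COL1A1 had 21.6 FPKM. Of 5 epithelial markers, KRT18, KRT8 and EPCAM had 63.8, 17.3 and 1.85 FPKM, and CDH1 and KRT19 were near 0 (0.0769 and 0.0116 FPKM). Of hepatocyte and adipocyte markers, the highest mean was 0.163 FPKM, for PLIN4. Libraries of VE-822 alone stood apart from the other 12 over all genes, and R1 and R2 differed in a shared way in the 6 other groups. The replicate number is therefore used as a block (a term in the model) in those 6 groups in a second fit, called the block, and its values are given where they change a call. Fold changes are differences of log2(FPKM + 1), tested with limma over 13088 genes, those whose mean reached 1 FPKM, and a call is a Benjamini-Hochberg adjusted p under 0.05. All 31 genes passed this filter.

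The desaturase SCD and the synthase FASN had the highest levels per length of the 31 genes. RNA came from whole cell pellets, so fewer cells with a transcript and less of it per cell cannot be told apart. SCD, the delta-9 desaturase that makes monounsaturated fatty acids, had a mean of 203 ± 32.8 FPKM (SD over 16 libraries, range 148 to 261). Fatty acid synthase, FASN, followed at 107 ± 15.4 FPKM, and these distributions did not overlap. DHCR7, which makes cholesterol from 7-dehydrocholesterol, came next at 61.7 ± 5.67 FPKM, ahead of ACLY at 55.2 ± 8.97 FPKM, SQLE at 54.9 ± 7.67 FPKM and SREBF1 at 49.9 ± 22.6 FPKM. The ranges of these 4 genes overlapped, so their order is not separated by the spread. ACLY makes cytosolic acetyl-CoA from citrate, and SQLE, squalene epoxidase, starts the oxygen-dependent steps of sterol synthesis.

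Among the other regulators, INSIG1 had a mean of 32.4 ± 12.8 FPKM, SCAP 31.3 ± 4.99 FPKM, SREBF2 28.4 ± 5.78 FPKM and INSIG2 3.70 ± 0.990 FPKM. The lowest INSIG1 library, at 16.3 FPKM, was above the highest INSIG2 library, at 5.21 FPKM. FADS2 and FADS1, the delta-6 and delta-5 desaturases of polyunsaturated fatty acids, had means of 35.3 ± 21.1 and 21.6 ± 5.42 FPKM, and the elongase ELOVL6 and the acetyl-CoA carboxylase ACACA had 9.21 ± 1.20 and 8.52 ± 0.986 FPKM. Of the early steps of cholesterol synthesis, HMG-CoA synthase (HMGCS1) had 26.2 ± 9.18 FPKM and farnesyl diphosphate synthase (FDPS) 17.0 ± 1.39 FPKM. PMVK, MVD and MVK, which turn mevalonate into isopentenyl diphosphate, had 7.40, 6.003 and 1.86 FPKM, and the isomerase IDI1 and the thiolase ACAT2 had 2.75 and 3.12 FPKM. Squalene synthase (FDFT1) and lanosterol synthase (LSS) had 6.22 and 12.5 FPKM. Among the enzymes after lanosterol other than DHCR7, levels ran from CYP51A1, the demethylase, at 2.28 FPKM and HSD17B7 at 2.48 FPKM over TM7SF2 (5.69), SC5D (10.6), EBP (19.99) and MSMO1 (22.0) to NSDHL at 25.7 FPKM. STARD4 had 8.15 ± 1.23 FPKM.

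Most of the 31 genes varied little between libraries. The highest library was a median of 1.87 times the lowest, beside 1.95 times over 12933 tested genes with values above 0 throughout. The widest ranges were those of FADS2 (12.6 to 74.4 FPKM, 5.89 times), SREBF1 (22.0 to 89.2 FPKM, 4.06 times), INSIG1 (16.3 to 55.3 FPKM, 3.40 times) and HMGCS1 (13.4 to 43.6 FPKM, 3.26 times). FDPS had the narrowest, at 14.9 to 19.1 FPKM or 1.28 times.

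**Figure D1:**
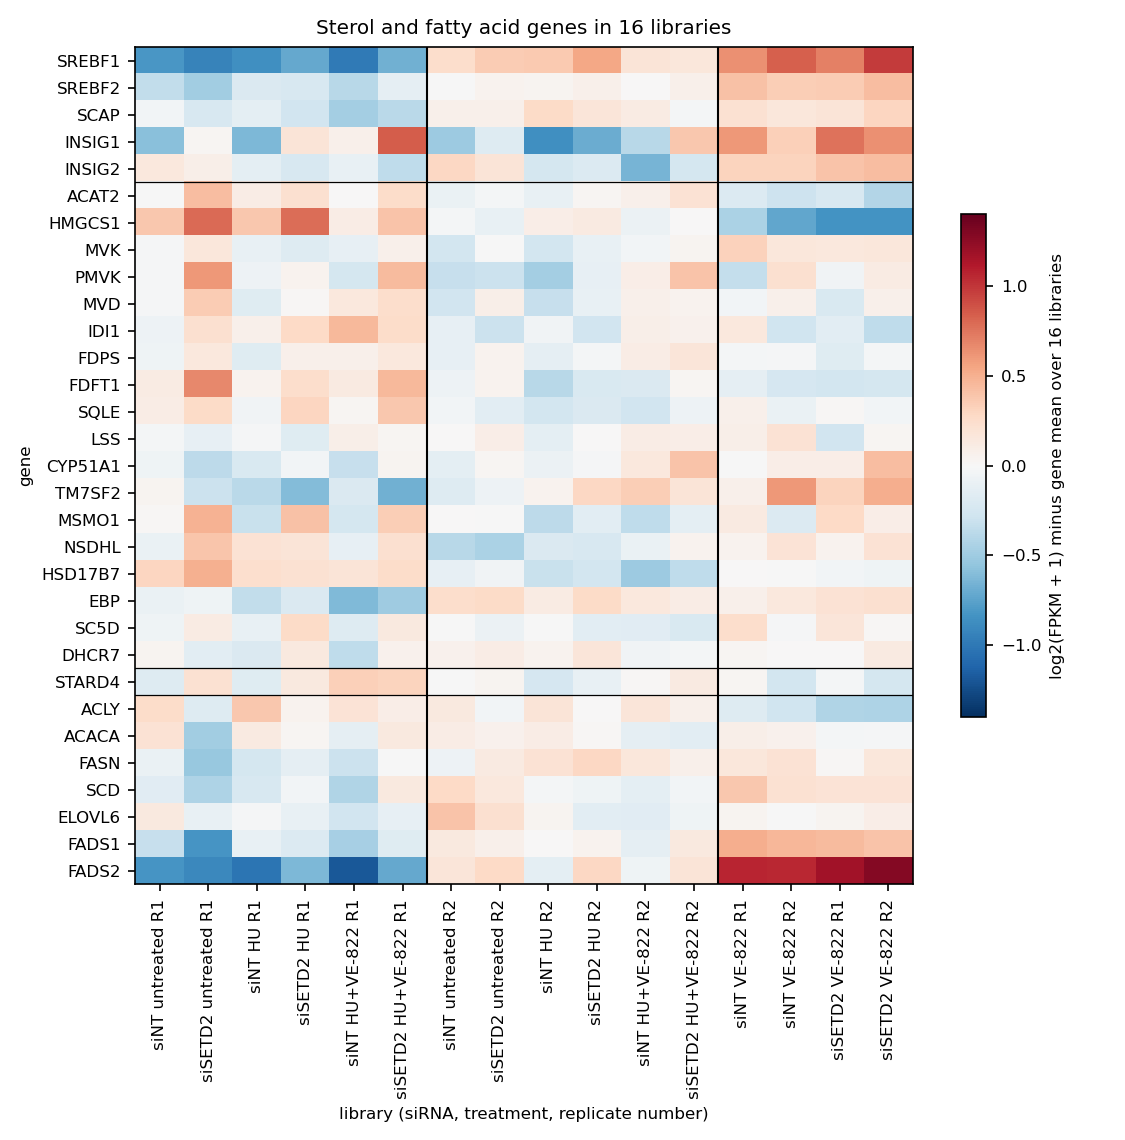
Each row is a gene and each column a library, and the colour is log2(FPKM + 1) minus the gene's mean over the 16 libraries (red higher, blue lower). Vertical lines separate 6 R1 libraries, 6 R2 libraries and 4 libraries of VE-822 alone, and horizontal lines separate regulators, cholesterol enzymes, STARD4 and fatty acid enzymes; SREBF1 and FADS2 run from low in R1 (medians 24.7 and 16.1 FPKM) to high in VE-822 alone (77.2 and 66.6 FPKM).

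Some levels carry an uncertainty from the counting, for which no use of strand is stated in the sources used here. In CYP51A1, 83.2% of exon bases also belong to exons of another gene, and in ACAT2 52.3% do (TCP1, SOD2 and SOD2-OT1). The share was 18.6% in FDPS, 14.95% in HMGCS1, 14.8% in IDI1 and 6.92% in SREBF1. FADS1 and FADS2 overlap each other on opposite strands. FADS1 shares 5.57% of its exon bases with FADS2 or MIR1908, and FADS2 shares 4.89% with FADS1 or FEN1. FDPS has 8 annotated pseudogenes, CYP51A1 has 3, HSD17B7 has 2, and SCD and FADS2 have 1 each.

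R2 libraries differed from R1 libraries in 17 of the 31 genes in the 6 groups without VE-822 alone, with 8 higher and 9 lower in R2. That is 54.8% of them, while 41.2% of all tested genes were called in this comparison. Of the regulators, SREBF1, SREBF2 and SCAP were higher in R2 and INSIG1 was lower. Among fatty acid enzymes FASN, FADS1 and FADS2 were higher and none was lower, whereas cholesterol enzymes were lower in 8 (HSD17B7, HMGCS1, FDFT1, SQLE, NSDHL, IDI1, MSMO1 and MVD) and higher in 2 (EBP and TM7SF2).

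SREBF1 (ENSG00000072310, chr17:17810399-17837002) ranged from 22.0 to 27.8 FPKM in the 6 R1 libraries, with a median of 24.7, and from 50.1 to 65.6 FPKM in the 6 R2 libraries, with a median of 55.6. The sets did not overlap, with a log2 fold change of 1.14 (SE 0.0790, adjusted p = 3.38e-06). FADS2 (ENSG00000134824, chr11:61792980-61867354) was also separated, with medians of 16.1 FPKM in R1 and 34.0 FPKM in R2 and a log2 fold change of 0.999 (SE 0.0585, adjusted p = 1.03e-06). EBP, the sterol isomerase, differed by 0.50 (adjusted p = 0.000188), TM7SF2, a sterol reductase, by 0.45 (adjusted p = 0.0249) and FADS1 by 0.39 (adjusted p = 0.0053). TM7SF2 lost its call without the filter on low values (adjusted p = 0.0867). Its call also depended on single libraries, and its difference ran from 0.37 to 0.59 when a single library was left out.

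HSD17B7, a ketosteroid reductase, was lower in every R2 library than in any R1 library, with a log2 fold change of -0.55 (SE 0.0514, adjusted p = 2.31e-05). FDFT1, which makes squalene, was likewise separated (-0.41, adjusted p = 0.000371). HMGCS1 had medians of 32.6 FPKM in R1 and 24.5 FPKM in R2 (-0.47, SE 0.0914, adjusted p = 0.00227), and its sets overlapped. In all, 5 of the 31 genes had R2 above R1 without overlap (SREBF1, SREBF2, SCAP, EBP and FADS2), beside 7.88% of all genes, and 2 had R2 below R1, beside 7.24%. What distinguishes R1 from R2 is not given in the labels.

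**Figure D2:**
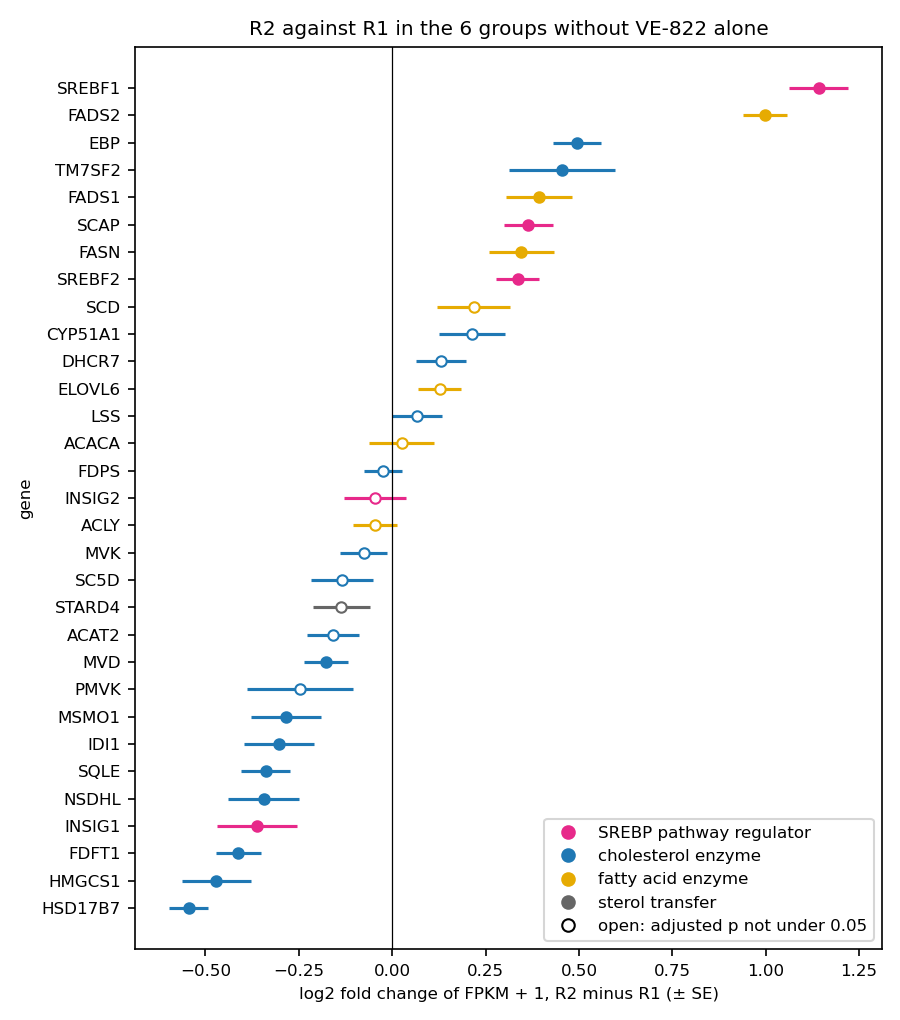
Points give the log2 fold change of FPKM + 1 of R2 against R1 over 12 libraries for each gene, with bars of 1 SE, coloured by role, and open points did not pass the test. SREBF1 (1.14) and FADS2 (0.999) are at the top and HSD17B7 (-0.55) and HMGCS1 (-0.47) at the bottom, with most cholesterol enzymes on the lower side.

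With VE-822 alone, 4 of the 31 genes rose against untreated cells and 3 fell, averaged over both siRNAs. These 7 are 22.6% of them, close to the 24.7% of all tested genes called, so the number itself does not set the genes apart. INSIG1, SREBF2, FADS1 and FADS2 rose, and HMGCS1, ACLY and ACAT2 fell. With the block, 14 genes were called (45.2%, beside 44.9% of all genes), 9 higher and 5 lower. The block added SREBF1, SCAP, MVK, CYP51A1 and TM7SF2 on the higher side and FDFT1 and HSD17B7 on the lower. All 5 regulators were higher on average, as were 46.4% of all tested genes, and 4 of the 5 passed with the block.

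INSIG1 (ENSG00000186480, chr7:155297776-155310235) lay at 19.8 and 20.9 FPKM in untreated siNT cells and 30.7 and 26.6 FPKM in untreated siSETD2 cells (R1 and R2). With VE-822 alone it lay at 46.3 and 38.3 FPKM in siNT and at 51.7 and 47.6 FPKM in siSETD2 cells. Every VE-822 library was above every untreated library, with a log2 fold change of 0.90 (SE 0.189, adjusted p = 0.00731). Leaving out any 1 library kept its call, with adjusted p between 0.0024 and 0.0315. The difference was 0.96 within R1 and 0.83 within R2.

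SREBF2 (ENSG00000198911, chr22:41833079-41907308) lay at 21.7 and 27.8 FPKM in untreated siNT and 19.6 and 28.9 FPKM in untreated siSETD2 cells. VE-822 alone gave 37.2 and 35.5 FPKM in siNT and 35.8 and 37.9 FPKM in siSETD2 cells. Its 4 VE-822 libraries were above the other 12, which reached 29.4 FPKM, with a log2 fold change of 0.58 (SE 0.147, adjusted p = 0.0172).

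SREBF1 lay at 25.0 and 53.5 FPKM in untreated siNT and 22.9 and 57.6 FPKM in untreated siSETD2 cells, and at 70.2, 80.6, 73.8 and 89.2 FPKM with VE-822 alone. The VE-822 libraries were again above all others. Its log2 fold change of 1.08 had an SE of 0.434 and did not pass (adjusted p = 0.0922), while the block, which takes out the shared gap of R1 and R2, gave an SE of 0.0967 and adjusted p = 1.16e-05. The smaller SE does not measure how far the difference within R1 (1.55) lay from that within R2 (0.60). A block over all 8 groups gave adjusted p = 0.00168. SCAP (ENSG00000114650) was at 30.0, 32.6, 26.2 and 32.4 FPKM untreated and 36.0, 34.6, 35.2 and 38.2 FPKM with VE-822 alone, without overlap (0.25, adjusted p = 0.279, with the block 0.0278). INSIG2 (ENSG00000125629) was at 4.11, 4.60, 3.87 and 4.21 FPKM untreated and at 4.71, 4.72, 5.07 and 5.21 FPKM with VE-822 alone, and its difference of 0.19 did not pass in either fit (adjusted p = 0.206, with the block 0.144).

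Of the fatty acid enzymes, FADS2 had the largest fold change among the 31 genes. It lay at 16.5 and 33.8 FPKM in untreated siNT and 15.7 and 36.6 FPKM in untreated siSETD2 cells, and at 64.0, 63.3, 69.3 and 74.4 FPKM with VE-822 alone. All 4 VE-822 libraries were far above the rest, which reached 36.9 FPKM, with a log2 fold change of 1.46 (SE 0.377, adjusted p = 0.0184). FADS1 (ENSG00000149485, chr11:61799625-61829318) went from 16.5, 23.1, 11.4 and 22.1 FPKM to 30.2, 29.4, 28.9 and 27.9 FPKM (0.69, SE 0.184, adjusted p = 0.0213). ACLY (ENSG00000131473, chr17:41866908-41930542) fell, from 65.6 and 59.9 FPKM to 47.9 and 44.9 FPKM in siNT and from 47.9 and 53.0 FPKM to 40.5 and 40.1 FPKM in siSETD2 cells (-0.37, SE 0.0813, adjusted p = 0.00873). Its untreated and VE-822 libraries met at 47.9 FPKM over both siRNAs but were separate within each siRNA. FASN, SCD, ACACA and ELOVL6 differed by 0.28, 0.28, 0.055 and -0.12 and did not pass in either fit.

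Among cholesterol enzymes HMGCS1 (ENSG00000112972, chr5:43289395-43313512) fell furthest. It lay at 32.5 and 24.2 FPKM in untreated siNT and 43.6 and 22.9 FPKM in untreated siSETD2 cells, and at 17.9, 14.6, 13.4 and 13.4 FPKM with VE-822 alone. These 4 libraries were below the other 12, with a log2 fold change of -0.97 (SE 0.209, adjusted p = 0.00809). ACAT2, which makes acetoacetyl-CoA, was at 3.06, 2.82, 4.51 and 3.01 FPKM untreated and at 2.58, 2.35, 2.50 and 2.08 FPKM with VE-822 alone (-0.35, adjusted p = 0.0364). FDFT1 was at 6.65, 5.72, 10.3 and 6.31 FPKM untreated and at 5.496, 4.999, 4.91 and 4.97 FPKM with VE-822 alone (-0.41, adjusted p = 0.105, with the block 0.00116). In the other direction TM7SF2 was at 5.66, 4.71, 4.28 and 5.19 FPKM untreated and at 5.82, 8.86, 7.07 and 8.25 FPKM with VE-822 alone (0.50, adjusted p = 0.15, with the block 0.0352). Of 18 cholesterol enzymes 10 were lower on average and 8 higher, and PMVK, MVD, IDI1, FDPS, SQLE, LSS, MSMO1, NSDHL, EBP, SC5D and DHCR7 passed in neither fit.

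**Figure D3:**
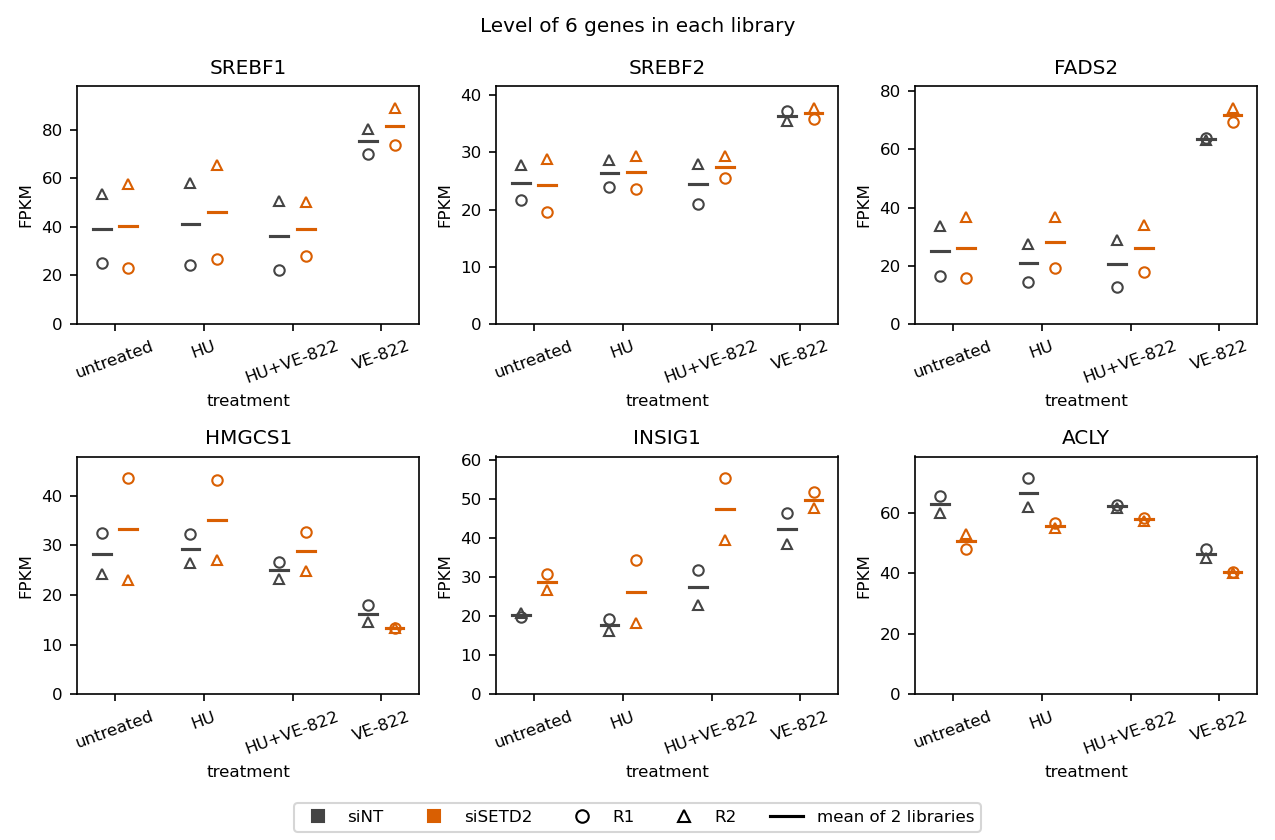
Each panel shows the FPKM of 1 gene in all 16 libraries by treatment, with siNT in grey and siSETD2 in orange, R1 as circles, R2 as triangles and the mean of the 2 libraries as a line. SREBF1, SREBF2 and FADS2 are highest and HMGCS1 lowest with VE-822 alone (SREBF1 from 70.2, HMGCS1 up to 17.9 FPKM), INSIG1 is also high with HU+VE-822 in siSETD2 cells (55.3 and 39.4 FPKM), and ACLY is lower with siSETD2.

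The 4 libraries of VE-822 alone differ from the rest both by drug and as a set of libraries, and these cannot be told apart. In all, 8 of the 31 genes had every VE-822-alone library above every untreated one (14.6% of all genes did), and 3 had them below (16.5%). Against all 12 other libraries, SREBF1, SREBF2, INSIG2, FADS1 and FADS2 were above without overlap (8.12% of all genes), and ACAT2 and HMGCS1 were below (10.7%). Because untreated R1 and R2 differ, the size of a difference depended on which was taken: for FADS2 it was 1.98 within R1 and 0.94 within R2, for SREBF1 1.55 and 0.60, and for HMGCS1 -1.23 and -0.71. The medians of R1, R2 and VE-822-alone libraries were 24.7, 55.6 and 77.2 FPKM for SREBF1, 22.7, 28.8 and 36.5 FPKM for SREBF2, 17.4, 21.9 and 29.1 FPKM for FADS1, and 32.6, 24.5 and 14.008 FPKM for HMGCS1, with R2 between the others. This order of medians held in 19 of the 31 genes and not in 12, among them INSIG1 (31.3, 21.9 and 46.9 FPKM). Its share over all tested genes was not counted, so the number does not set the 31 genes apart. The number called was 3 without siNT untreated R1, siNT VE-822 R1 or siSETD2 VE-822 R2, and 4 without siNT VE-822 R2 or siSETD2 VE-822 R1. FADS2, FADS1 and SREBF2 were among the calls lost.

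VE-822 was also given on top of HU, in libraries that share the R1 and R2 numbering with the HU libraries. In this comparison, which has no library in common with the previous one, 0 of the 31 genes passed (0.00764% of all genes did). By voom 0 were called, and 4 of the 31 reached an unadjusted p below 0.05, beside 8.34% of all genes. The block called INSIG1 alone, 1 of 31 or 3.23%, beside 1.31% of all genes and 0.703% on the higher side. INSIG1 went from 19.1 to 31.9 FPKM in R1 and from 16.3 to 22.9 FPKM in R2 of siNT cells, and from 34.2 to 55.3 FPKM and from 18.2 to 39.4 FPKM in siSETD2 cells. All 4 pairs went up, and within each siRNA the HU+VE-822 libraries were above the HU libraries. The shares of all genes with 4 pairs in the same direction, or separate within each siRNA, were not counted. On average the log2 difference was 0.73 (SE 0.189, adjusted p = 0.305, with the block 0.0311). It was 0.69 within R1 and 0.77 within R2, and a block over all 8 groups gave adjusted p = 0.058.

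The other 13 genes called for VE-822 alone with the block differed by at most 0.24 in size on top of HU, and none of them passed. SREBF1 lay at 24.3, 58.2, 26.8 and 65.6 FPKM in HU and at 22.0, 50.8, 27.8 and 50.1 FPKM in HU+VE-822, a log2 fold change of -0.17 (SE 0.434, adjusted p = 0.958). FADS2 lay at 14.2, 27.3, 19.0 and 36.9 FPKM in HU and at 12.6, 28.8, 17.9 and 34.1 FPKM in HU+VE-822 (-0.070, SE 0.377). HMGCS1 lay at 32.3, 26.4, 43.1 and 27.1 FPKM and at 26.7, 23.3, 32.8 and 24.8 FPKM (-0.24, SE 0.209), lower in all 4 pairs. SREBF2 lay at 24.0, 28.6, 23.6 and 29.4 FPKM in HU and at 21.0, 28.1, 25.5 and 29.3 FPKM in HU+VE-822 (-0.028). FADS1 and SCAP differed by -0.10 and -0.20 and INSIG2 by -0.13. No other gene of the 31 passed in either fit.

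The difference between both VE-822 effects was tested directly, in a comparison added after the values were seen. Without the block 0 of the 31 genes passed, beside 9.91% of all genes, and voom called 0. Of the 31, 10 reached an unadjusted p below 0.05, beside 28.8% of all genes. With the block 11 passed (35.5%, beside 33.1% of all genes), 5 of them more positive without HU and 6 more negative. FADS2 differed by 1.53 (SE 0.534, adjusted p = 0.0897, with the block 4.55e-06) and SREBF1 by 1.24 (SE 0.614, adjusted p = 0.208, with the block 0.000114). A block over all 8 groups gave them adjusted p = 0.0039 and 0.00945. FADS1, SREBF2 and SCAP differed by 0.79, 0.61 and 0.44 (adjusted p = 0.00337, 0.0013 and 0.0126 with the block). HMGCS1 differed by -0.73 (with the block 0.00572), FDFT1 by -0.59 (0.00184) and STARD4, which carries cholesterol between membranes, by -0.43 (0.0293). MVD, ACAT2 and ACLY were the remaining calls. For INSIG1 the difference was 0.16, with a 95% interval of -0.42 to 0.75 without and -0.24 to 0.57 with the block. The number called was 6 without siSETD2 untreated R2, 1 without siNT HU+VE-822 R1 and 0 without any other single library.

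**Figure D4:**
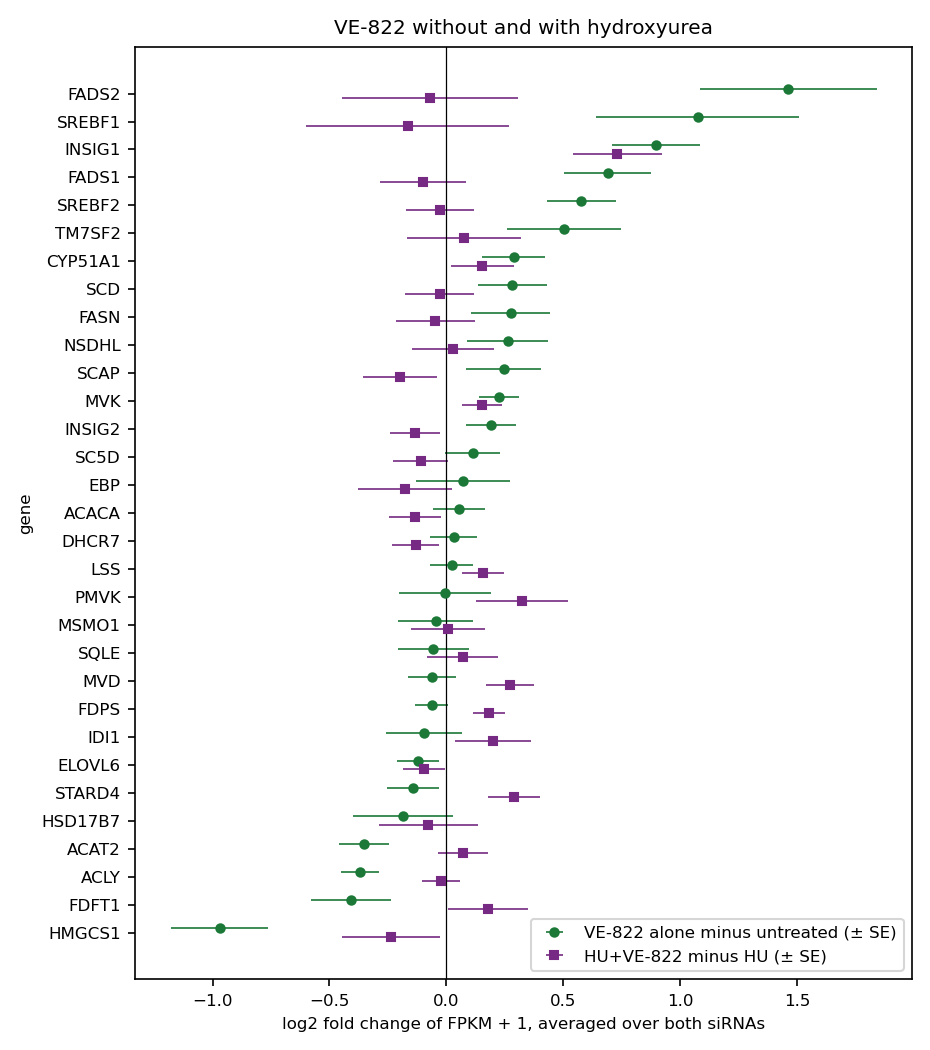
For each of the 31 genes, circles give the log2 fold change of FPKM + 1 for VE-822 alone against untreated and squares that for HU+VE-822 against HU, both averaged over siNT and siSETD2, with bars of 1 SE. INSIG1 lies to the right in both (0.90 and 0.73), while FADS2 (1.46 and -0.070) and SREBF1 (1.08 and -0.17) lie to the right only for the circles.

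HU alone changed none of the 31 genes past the threshold against untreated cells. The test called 0 with and without the block, beside 0.107% of all genes without it (0.0688% on the lower side) and 1.6% with it. Of the 31, 2 reached an unadjusted p below 0.05 (7.58% of all genes did), and voom called 0. INSIG2, the second anchor of SCAP, had the smallest p. It lay at 4.11, 4.60, 3.87 and 4.21 FPKM untreated and at 3.17, 2.86, 2.93 and 3.01 FPKM in HU, lower in all 4 pairs and without overlap (-0.38, SE 0.106, adjusted p = 0.331, with the block 0.0933). The share of all genes without overlap between HU and untreated libraries was not counted. ELOVL6 differed by -0.22 (adjusted p = 0.591), and FDFT1, MVD and MVK by -0.27, -0.18 and -0.13. SREBF1 and SREBF2 differed by 0.12 each, SCAP by 0.039 and INSIG1 by -0.19.

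HU and VE-822 together, against untreated cells, gave 0 calls among the 31 (0.0382% of all genes, 0.0229% higher and 0.0153% lower). By voom 0 were called, and 3 of the 31 reached an unadjusted p below 0.05, beside 13.6% of all genes. With the block 5 passed (16.1%, beside 7.3% of all genes), 1 higher (4.07% of all genes) and 4 lower (3.23%). INSIG1 was higher (0.54, SE 0.189, adjusted p = 0.244, with the block 0.0347), and INSIG2 lower, at 3.26, 1.94, 2.597 and 2.89 FPKM in HU+VE-822 (-0.51, SE 0.106, adjusted p = 0.0811, with the block 0.0168). Both proteins retain SCAP, and their transcripts thus changed in opposite directions in the fit with the block. ELOVL6, EBP and HSD17B7 were lower by -0.31, -0.30 and -0.27 (with the block 0.027, 0.0441 and 0.0331). A block over all 8 groups, and a block without the VE-822-alone libraries, each called 1 gene, INSIG2 (adjusted p = 0.0317 and 0.0483). Without siSETD2 untreated R1 and with no block, INSIG2 and ELOVL6 were called.

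SETD2 siRNA gave 0 calls among the 31 genes averaged over the 4 treatments (0.13% of all genes, 0.0306% on the higher side). By voom 0 were called, and 3 of the 31 reached an unadjusted p below 0.05, beside 10.0% of all genes. The block called 3 (9.68%, beside 3.88% of all genes). INSIG1 and FADS2 were higher (1.66% of all genes) and ACLY was lower (2.22%). Of the 31 genes 22 were higher in siSETD2 cells, with a median log2 fold change of 0.081, beside -0.0075 over all tested genes. Scaling to library totals moved the median of all genes by 0.031, to 0.023. That scaling acts on the 31 genes as well, so 0.023 is not a value to set beside 0.081. By role, 15 of 18 cholesterol enzymes, 4 of 5 regulators and 2 of 7 fatty acid enzymes were higher. These counts by role differed between treatments and are given for each further on. Over all tested genes 47.5% were higher in siSETD2 cells.

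INSIG1 was higher in siSETD2 than in siNT cells in 8 of 8 pairs of equal treatment and number, as were 3.95% of all genes. The pairs differed by 0.60 and 0.34 untreated, 0.81 and 0.15 in HU, 0.16 and 0.31 in VE-822 and 0.78 and 0.76 in HU+VE-822 (R1 and R2). Over 8 libraries each, levels ranged from 16.3 to 46.3 FPKM in siNT and from 18.2 to 55.3 FPKM in siSETD2 cells, so the siRNAs overlapped across treatments. The average was 0.49 (SE 0.134, adjusted p = 0.195, with the block 0.0197). ACLY was lower in siSETD2 in 8 of 8 pairs, as were 5.94% of all genes, by -0.44 and -0.17 untreated, -0.33 and -0.17 in HU, -0.24 and -0.16 in VE-822 and -0.10 and -0.10 in HU+VE-822. Its average was -0.22 (SE 0.0575, adjusted p = 0.181, with the block 0.0449). FADS2 was higher in 7 of 8 pairs (0.24, SE 0.267, adjusted p = 0.841, with the block 0.0299). With a block over all 8 groups INSIG1 was still called (adjusted p = 0.0378), and ACLY (0.081) and FADS2 (0.426) were not.

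Other genes leaned the same way as INSIG1 without passing. MSMO1, which oxidises the methyl groups at carbon 4 of sterols, was higher in 7 of 8 pairs (0.33, SE 0.112, adjusted p = 0.315, with the block 0.0501). PMVK, CYP51A1 and EBP were also higher in 7 of 8 pairs, by 0.29, 0.15 and 0.081 on average. SREBF1, SREBF2, SCAP and INSIG2 differed by 0.10, 0.037, -0.045 and 0.020. ACACA was lower in 7 of 8 pairs (-0.11). The share of all genes with 7 of 8 pairs in the same direction was not counted. These counts, with that of FADS2, therefore do not set the genes apart.

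**Figure D5:**
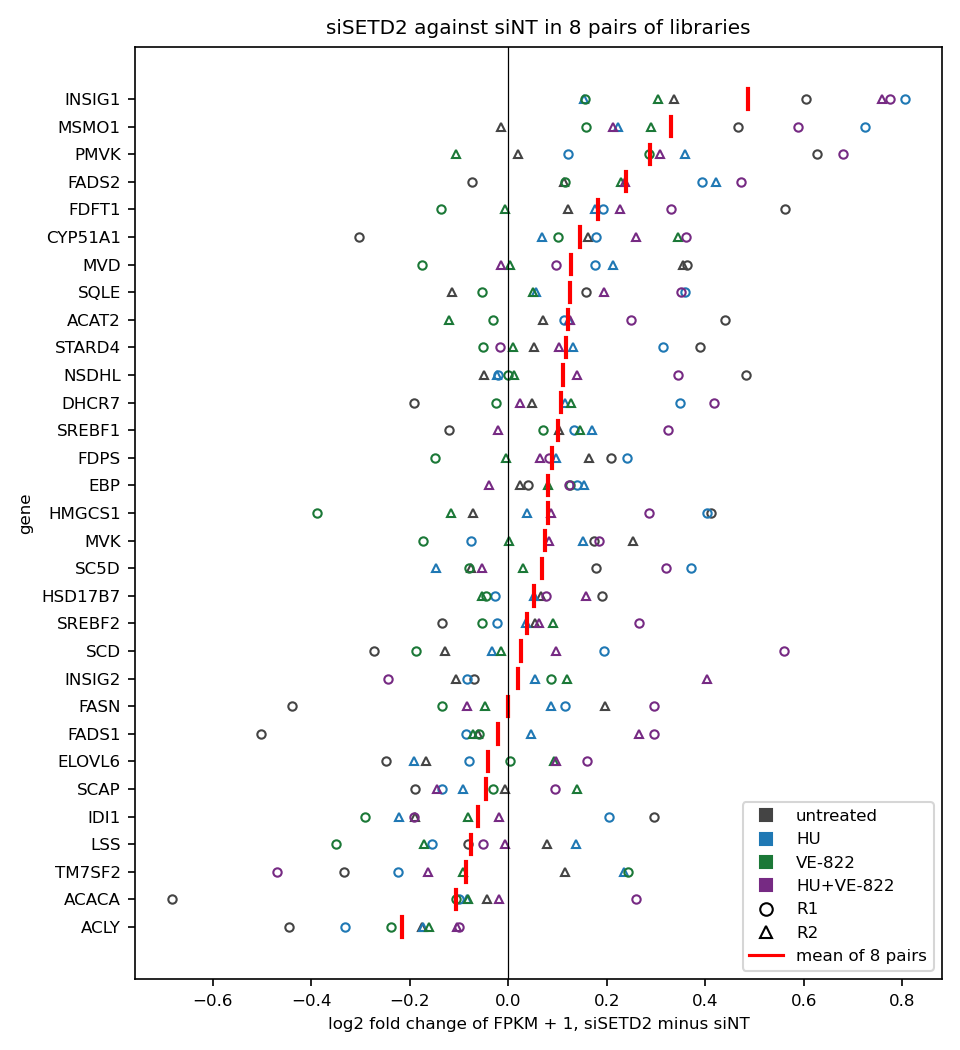
Each point is the log2 fold change of FPKM + 1 between a siSETD2 and a siNT library of equal treatment and number, coloured by treatment, with R1 as circles and R2 as triangles, and red bars give the mean of 8 pairs (VE-822-alone libraries are matched by number only). INSIG1 is the one gene with all 8 points above 0 (0.15 to 0.81), and ACLY the one with all 8 below 0 (-0.44 to -0.10).

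Within single treatments siSETD2 gave 0 calls among the 31 genes in each of the 4, in either fit and by voom, and at most 0.0458% of all genes were called in any of them, by the block in VE-822. SETD2 itself, with log2 fold changes of -1.23 to -0.93, was not called in either fit. Its lowest adjusted p was 0.784 without and 0.0846 with the block, both untreated. These tests thus missed the siRNA target, and 0 calls do not show that a gene was unchanged. An unadjusted p below 0.05 was reached by 3 genes untreated, 0 in HU, 0 in VE-822 and 1 in HU+VE-822. The shares of all genes were 4.42%, 2.57%, 2.93% and 2.18%. INSIG1 differed by 0.47, 0.48, 0.23 and 0.77 (SE 0.268) in these treatments. Untreated, MVD and FDPS differed by 0.36 and 0.19, ACLY by -0.31 and ACACA by -0.36, and ACACA passed without siSETD2 untreated R2 (-0.64, adjusted p = 0.0424). In HU, MSMO1 differed by 0.47, DHCR7 by 0.23, FDPS by 0.17 and ACLY by -0.25. In VE-822, LSS differed by -0.26, MSMO1 and CYP51A1 by 0.22 each and ACLY by -0.20. In HU+VE-822, PMVK differed by 0.49, MSMO1 by 0.40, SCD by 0.33 and CYP51A1 by 0.31. The counts of genes higher in siSETD2 were 17, 22, 14 and 26 of 31, beside 48.6%, 43.3%, 47.0% and 52.8% of all tested genes. By role they were 14, 15, 7 and 15 of 18 cholesterol enzymes and 1, 3, 5 and 4 of 5 regulators. Of 7 fatty acid enzymes, 1, 3, 2 and 6 were higher.

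Whether the drug responses depended on SETD2 siRNA was tested as the difference of responses between siRNAs. The test called 0 of the 31 genes, and 0% of all genes, with and without the block, and voom called 0. This held for HU, for VE-822 on top of HU and for VE-822 alone. Without the block 0 of the 31 reached an unadjusted p below 0.05, beside 0.741%, 0.787% and 1.73% of all genes. With the block 1, 0 and 2 of the 31 did. For INSIG1 the response differed by 0.0097 (HU), 0.29 (VE-822 on top of HU) and -0.24 (VE-822 alone), each with an SE of 0.379. As within single treatments, 0 calls do not show that the responses were equal between siRNAs. The smallest p-values for HU belonged to DHCR7 (0.30), ACACA (0.27), SCD (0.28), MVK (-0.18) and MVD (-0.16). For VE-822 on top of HU they belonged to ELOVL6 (0.26), FADS1 (0.30), ACACA (0.21), SCD (0.25) and ACLY (0.15). For VE-822 alone they belonged to MVD (-0.44), FDPS (-0.26), MVK (-0.30), ACAT2 (-0.33) and LSS (-0.26).

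Genes that act beside these 31 were followed in 5 lists written from general knowledge, with earlier results of these data known. With VE-822 alone, 3 of 7 genes that process or degrade SREBP pathway proteins rose and 0 fell, beside 11.4% of all genes that rose and 13.4% that fell. The block called 6 of the 7, all higher, when it called 20.7% of all genes higher and 24.2% lower. The 3 called in both fits were the site-1 protease MBTPS1 (0.35), the endoplasmic reticulum scaffold ERLIN2 (0.61) and the ubiquitin ligase RNF139 (0.69), with a list median of 0.35 beside -0.030 over all genes. Of 8 tested genes of sterol transport, esterification and LXR signalling, 3 rose: the lysosomal cholesterol carriers NPC1 (0.85) and NPC2 (0.94) and the exporter ABCG1 (1.08). The cholesterol-esterifying enzyme SOAT1 fell (-0.61), and the block gave the same counts. In the isoprenoid branch PDSS1, which makes the tail of coenzyme Q, fell (-0.45) and 0 of 10 rose, while the block called 1 higher and 1 lower. Of 15 further genes of fatty acid and phospholipid synthesis 2 rose (GPAM 0.63 and ACSL3 0.57) and 2 fell (ELOVL1 -0.40 and ACSL4 -0.50), while the block called 5 higher and 5 lower. Of 8 genes of fatty acid oxidation CPT1A rose (0.33) and 0 fell, while the block called 1 higher and 4 lower.

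Some of these genes differed between both VE-822 effects even without the block, in the comparison added after the values were seen. NPC2 differed by 0.99, NPC1 by 0.94 and ABCG1 by 1.14 (adjusted p = 0.0045, 0.0055 and 0.0282). ERLIN2 differed by 0.73, RNF139 by 0.83, GPAM, which starts glycerolipid synthesis, by 0.74, and CPT1A, which brings fatty acids into mitochondria, by 0.42 (adjusted p = 0.00478, 0.0187, 0.0049 and 0.0466). Each was more positive without HU. In the order of the lists above, the calls were 2 of 7, 3 of 8, 0 of 10, 1 of 15 and 1 of 8 tested genes. Of all genes, 4.88% were called in this direction and 5.03% in the other. Between R2 and R1, ABCG1 (0.42) and RNF139 (0.28) were also called, and NPC1, NPC2, ERLIN2, GPAM and CPT1A were not.

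In the other comparisons these lists gave 0 calls without the block for HU, for HU+VE-822 against HU or untreated, and for siSETD2 averaged over treatments. With the block, ELOVL1, an elongase of saturated chains, was lower in HU+VE-822 than in HU (-0.45, adjusted p = 0.0358). It was also lower than in untreated cells (-0.39, adjusted p = 0.0229). The block called 0.611% and 3.23% of all genes lower in these comparisons. In siSETD2 cells, with the block, ERLIN1 was lower (-0.51, adjusted p = 0.028) and 3 genes were higher, namely MID1IP1, an activator of acetyl-CoA carboxylase (0.46, adjusted p = 0.00692), NUS1 (0.27, adjusted p = 0.024) and the LXR receptor NR1H3 (0.24, adjusted p = 0.0152). Of all genes, the block called 2.22% lower and 1.66% higher in siSETD2 cells.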

How the data were processed

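RNA-seq libraries from 16 samples of U2OS cells were analysed. One table of FPKM values for 58735 genes was deposited by the authors. Per the submitters' processing notes the genome build was hg38, and the tools named there are DESeq2 1.26.0, featureCounts 1.5.0-p3, STAR 2.6.1d and FastQC. The sources used here do not give their settings. All gene identifiers occur in GENCODE 29, which gave symbols, positions and merged exon lengths. FPKM times exon length and 1 factor per library gave whole fragments (tolerance 0.01) for 100% of values. The totals were 22310806 to 31101932, and each FPKM denominator was the geometric mean of the totals times a median-of-ratios factor (0.839 to 1.22).

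Values were tested as log2(FPKM + 1), with a pseudocount of 1, by limma 3.58.1 (trend) in R 4.3.3, with 1 mean per group over all 16 libraries (8 residual degrees of freedom). A gene was tested where its mean reached 1 FPKM, which held for 13088, and p-values were adjusted over all of them (threshold 0.05). The scripts were tested on simulated data. Fold changes on this scale understate changes of low genes.

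The replicate numbers are not said to mark a culture or day. Their R1 minus R2 differences correlated across genes at 0.363 to 0.746 in 15 pairs of the 6 groups without VE-822 alone, and at -0.052 to 0.295 in 12 pairs with 1 VE-822-alone group. The block is therefore a term for the number in those 6 groups, set to 0 in the 4 libraries of VE-822 alone, which leaves 7 residual degrees of freedom. Both VE-822-alone groups correlated with each other at 0.395, and a difference of R1 and R2 shared by them alone is not modelled.

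The 31 genes and all lists were chosen with earlier results of these data known. Values per library were planned for the 5 regulators and for genes past the threshold in either fit (at most the 8 with the largest fold change). They were given for part of these and, with VE-822 alone, also for ACLY and ACAT2. The rest were given by fold change or by name. Where none passed, the 5 with the smallest unadjusted p were named. Alternatives were other blocks, scaling to library totals, a pseudocount of 0.1, no filter or a minimum of 5 FPKM, voom on recovered fragments, no VE-822-alone libraries, and leaving out each library. RefSeq promoters (GRCh38.p14) were searched for 4 motifs. ACAT2, FDFT1, FASN and SQLE were not matched there.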

Additional observations from a re-analysis of the deposited data

How the results depend on the processing

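There were 1853 alternative values of single genes. Of these, 44 passed the threshold newly, 23 no longer passed, 2 changed sign and 1784 were counted as unchanged. Those 2 were the differences of the HU response between siRNAs for ACACA and SCD without siSETD2 untreated R1. The 1784 include values within R1 or R2 alone, which have no test. For genes not called, a change of sign within R1 or R2 was also counted as unchanged. The same difference for ACACA changed sign in this way within R2, at -0.041. Leaving out 1 library gave -0.0025 to 0.54 for ACACA and -0.010 to 0.57 for SCD, and neither passed. With the replicate block in 6 groups the counts of called genes were 3 for siSETD2 averaged over treatments, 1 for HU+VE-822 against HU, 5 for HU+VE-822 against untreated, 14 for VE-822 against untreated and 11 for the difference of VE-822 effects. With the block in all 8 groups they were 1 for siSETD2, 1 for HU+VE-822 against untreated, 12 for VE-822 and 10 for that difference, and a block without the VE-822-alone libraries gave 1 for HU+VE-822 against untreated. Leaving out 1 library gave 3 to 10 for VE-822 against untreated, 12 to 17 for R2 against R1, 0 to 6 for the difference of VE-822 effects, 0 to 2 for HU+VE-822 against untreated and 0 to 1 for untreated siSETD2 against siNT, and 0 to 0 elsewhere. The causes were not tested. Scaling to library totals, the pseudocount of 0.1, either filter and voom moved none of these counts by over 1.5 times. A median of all genes moved by at most 0.075 under scaling to totals. With 2 libraries a group, a change has to be large beside the gap of R1 and R2 to pass without the block.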
